A study of Mus musculus with 14 samples.

Results

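Narrow regions of H3K4me3 to which the deposited tables assign no gene were examined in adult mouse cortex. Of 14881 regions with values, 744 met 3 conditions: no matching transcript in the tables, a width under 1000 bp, and a start at 6.5 Mb or further along the chromosome. They made up 5% of all regions and 21.3% of the 3493 regions without a gene. The signal was not used to choose them. A further 45 narrow regions without a gene started before 6.5 Mb and were left out. The regions set beside them were 715 narrow regions with a gene, 2704 wide regions without a gene and 10673 wide regions with a gene.

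The mark had been measured by ChIP-seq in cerebral cortex of C57BL/6J mice at 3 months of age, in 14 libraries and 4 groups. Nicotine after postnatal-only exposure had 4 libraries, set against 4 libraries of its own saccharin controls. Nicotine after pre- and postnatal exposure had 3 libraries, numbered 1, 3 and 4, set against 3 libraries of its own saccharin controls, numbered 1, 2 and 3. No genetic change is named in any group. The labels describe 1 treatment for all samples: drinking solution given to pregnant mice from conception, taken away at day 21, with no further treatment up to day 90. That the first 2 groups were exposed after birth alone is known here from the group names. The tissue holds many cell types, so a lower signal cannot be told apart from fewer cells carrying the mark.

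H3K4me3 is trimethylation of lysine 4 on histone H3. It is laid down by SET1 and MLL complexes, chiefly around active transcription start sites, where it is bound by factors that help start transcription, and CpG islands recruit these complexes through proteins that bind unmethylated CpG. Broad domains are typical of strongly active genes, while small domains are also seen at weak promoters, at some enhancers and at promoters that an annotation lacks.

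Values are read counts per region as adjusted by the submitters, called signal below, and levels between regions are given per kb of width. Raw depth is unknown. The summed signal was 2004920 to 2489860 in the postnatal table and 1445810 to 2372860 in the pre- and postnatal table. In the postnatal table, libraries 1 and 2 of each group, and libraries 3 and 4, had a variance of 1.01 to 1.08 times counting noise, while libraries paired otherwise within a group had 2.21 to 2.71 times. The close pairs were averaged and counted as 1 sample. The 15 strongest regions of the series, each over 3000 in mean postnatal signal, held 8.30% to 25.5% of the signal per postnatal library and 19.1% to 49.7% per library of the other table, and this share, called the top share below, is given beside the results it moves with. As a check of the tissue, 5 of 10 marker genes of cortical neurons had a region, among them Snap25 and Slc17a7, as did 3 of 4 oligodendrocyte genes and 2 of 2 striatal genes. No region was listed for 4 astrocyte, 3 microglial, 2 liver or 2 erythrocyte genes.

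The regions were placed by their neighbours, since a genome of their build (mm9) was not used here and no exon or intron is assigned. For 706 of the 744, the named regions on both sides could be ordered in RefSeq (GRCm38.p6), which was used for names and gene order. In 205 of them (29.0%) no protein-coding gene lay between the named neighbours, in 183 there was 1, and in 318 there were 2 or more. Both named neighbours were within 50 kb for 110 regions, and 26 of these had 1 protein-coding gene in between. Start-site promoters of some genes between such neighbours are given as examples. They do not describe the sequence of the intervals or of the regions. They were chosen after the values were seen, from the 3 strongest of these 26, of which 1 had no promoter entry. Others came from 1 region inside a histone gene cluster, with 2 protein-coding genes between its neighbours. Whether a region covers any of them was not determined. Slc35e3, a member of the nucleotide sugar transporter family, lies between Mdm2 and Nup107. Mfsd8, which encodes a lysosomal membrane protein, lies between Plk4 and 3110057O12Rik. H3c3 and H2bc3, which encode histones H3 and H2B, lie between Hist1h1c and Hist1h2ab. The 250 bases before each start site are given from RefSeq (GRCm38.p6), 5′ to 3′ on the gene's strand, with CCAAT and TATAAA in capitals on either strand, and CCAAT on the other strand reads ATTGG.
Slc35e3, chromosome 10, 117746359 to 117746608, minus strand: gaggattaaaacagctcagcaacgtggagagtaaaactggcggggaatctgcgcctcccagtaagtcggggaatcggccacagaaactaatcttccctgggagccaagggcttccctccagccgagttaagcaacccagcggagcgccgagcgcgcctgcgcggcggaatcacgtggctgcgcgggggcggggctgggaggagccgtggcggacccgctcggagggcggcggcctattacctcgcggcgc
Mfsd8, chromosome 3, 40846855 to 40847104, minus strand: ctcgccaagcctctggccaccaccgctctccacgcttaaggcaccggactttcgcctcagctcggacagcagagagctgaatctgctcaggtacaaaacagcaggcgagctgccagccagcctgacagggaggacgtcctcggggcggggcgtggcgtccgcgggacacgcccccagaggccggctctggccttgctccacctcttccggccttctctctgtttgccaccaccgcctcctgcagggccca
H3c3, chromosome 13, 23745522 to 23745771, minus strand: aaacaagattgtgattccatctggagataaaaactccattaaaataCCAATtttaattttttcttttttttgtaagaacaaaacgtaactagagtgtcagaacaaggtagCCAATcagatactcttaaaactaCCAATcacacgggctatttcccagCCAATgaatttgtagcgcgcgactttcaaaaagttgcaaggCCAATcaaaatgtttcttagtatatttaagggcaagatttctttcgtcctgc
H2bc3, chromosome 13, 23746484 to 23746733, plus strand: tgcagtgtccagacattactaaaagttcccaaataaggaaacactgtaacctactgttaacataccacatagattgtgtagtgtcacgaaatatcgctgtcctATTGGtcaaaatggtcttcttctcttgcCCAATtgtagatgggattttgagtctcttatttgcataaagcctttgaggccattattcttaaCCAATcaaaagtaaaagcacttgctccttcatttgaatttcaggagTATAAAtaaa
The Slc35e3 and Mfsd8 promoters held 66.4% and 67.2% G and C, against a median of 52% over 27025 promoters, and their ratio of observed to expected CpG was 0.991 and 0.653, against a median of 0.378. Neither held CCAAT or TATAAA. The H3c3 and H2bc3 promoters held 34.8% and 36% G and C, and their CpG ratio was 0.801 and 0.249, so that of H3c3 was above that of Mfsd8. They held 5 and 3 copies of CCAAT, and the promoter of H2bc3 held 1 TATAAA. Over the 27025 promoters, 34.5% held CCAAT and 13% held TATAAA in the same window. These motifs did not overlap each other.

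The regions were spread over 20 chromosomes and most stood far from named regions. The narrowest was 611 bp wide and the median 869 bp, against 901 bp for narrow regions with a gene. The distance from the middle of a region to the middle of the nearest other region with a gene had a median of 61.3 kb, against 33.9 kb for narrow regions with a gene, 46.5 kb for wide regions without one and 39.8 kb for wide regions with one. 38 regions (5.11%) were within 5 kb, 296 (39.8%) between 5 and 50 kb, and 410 (55.1%) further than 50 kb. The share beyond 50 kb was 40.4%, 47.6% and 42.8% in the other 3 classes. 32 regions (4.30%) were further than 1 Mb from any region with a gene, against 1.12%, 1.74% and 0.693%. The most isolated lay on chromosome 14, 83897984 to 83898852, 3642 kb from the region of Diap3. These distances depend on which genes the tables name.

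**Figure D1:**
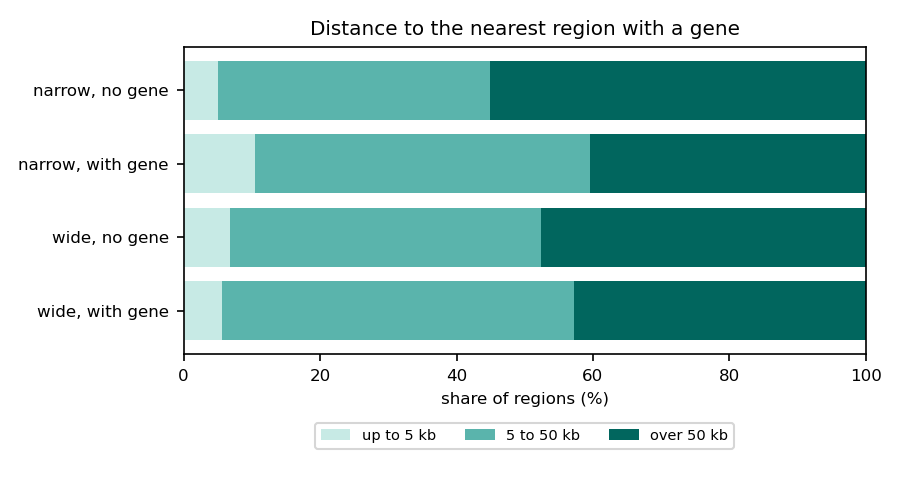
Share of regions (horizontal axis, %) by distance to the nearest other region with a gene, in 3 distance classes, for narrow regions without a gene and the 3 other classes of regions. The darkest part of each bar, over 50 kb, is longest for narrow regions without a gene, at 55.1%.

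On chromosome X they were 38 of 470 regions (8.09%), on chromosome 1 they were 65 of 888 (7.32%) and on chromosome 13 they were 45 of 618 (7.28%). On chromosome 6 they were 21 of 717 (2.93%). Some lay in runs: 93 regions (12.5%) were within 50 kb of another of the 744. The longest run held 7 regions in 46.3 kb of chromosome 8, 19918039 to 19964387, near 6820431F20Rik and Gm15319. Its signal per kb had a median of 21.8 in the postnatal table and 52.8 in the pre- and postnatal table. A run of 5 regions stood on chromosome 1, 172994374 to 173033352, with its nearest named region, 47.5 kb away, at Sdhc, which encodes a subunit of succinate dehydrogenase. Another 3 regions lay on chromosome 13, 21801606 to 21814134, beside Hist1h2ak. Regions with near-identical copies, such as histone genes and gene families, could share reads, and how reads with several matches were counted is not given in the sources used here.

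8 regions had a histone gene as their nearest named neighbour within 50 kb, 6 on chromosome 13 and 2 on chromosome 3. Their signal per kb had a median of 39.5 in the postnatal table (range 7.80 to 134) and 29.7 in the pre- and postnatal table (range 8.62 to 109.5). The median over the 744 regions was 12.1 and 11.4 in the same tables. Nicotine means were below saccharin means for 5 of the 8 after postnatal exposure and for 4 of the 8 after pre- and postnatal exposure.

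Signal per kb was low in these regions in all 14 libraries. The median per library was 9.19 to 14.2 in the postnatal table, against 11.4 to 15.3 for narrow regions with a gene, 41.2 to 44.5 for wide regions without a gene and 57.5 to 61.9 for wide regions with a gene. In the pre- and postnatal table it was 8.62 to 16.1, against 8.96 to 14.5, 27.2 to 31.0 and 36.1 to 39.1. The narrow regions with a gene were thus close to those without one, and both lay below the wide classes in every library. Width was part of the rule, so this says how level and width go together in these tables. The 744 regions held 0.552% to 0.776% of the postnatal signal and 0.988% to 1.56% of the pre- and postnatal signal.

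**Figure D2:**
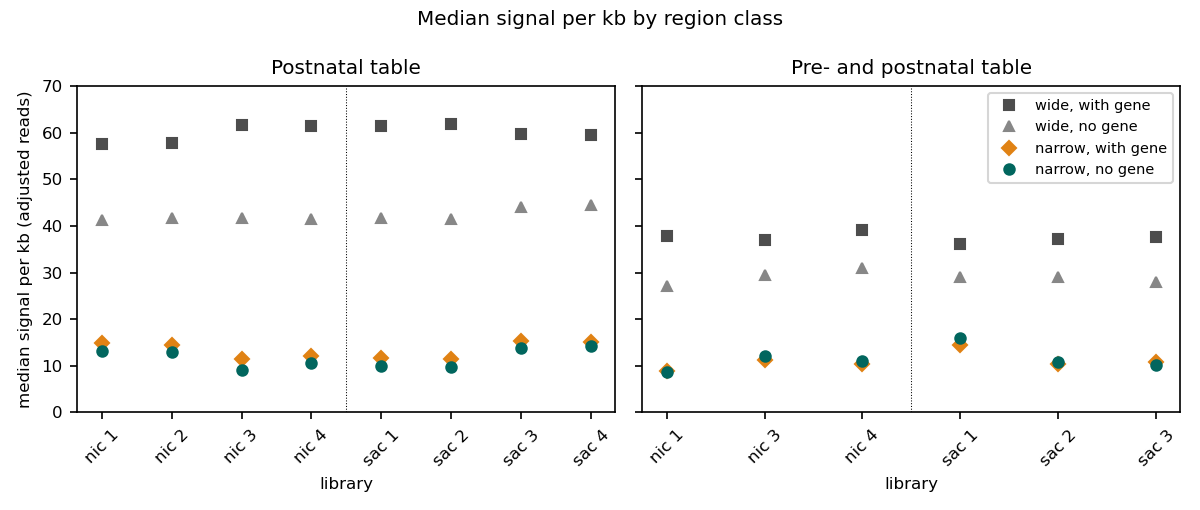
Median signal per kb (vertical axis, adjusted reads per kb) in each library, nicotine left of saccharin in each panel, for 4 classes of regions. Narrow regions without a gene lie between 8.62 and 16.1, below both wide classes in all 14 libraries.

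Levels varied between samples by more than between treatments. In postnatal samples the median per kb over the 744 regions was 13.4 and 9.95 with nicotine and 10.4 and 14.5 with saccharin, giving 11.7 ± 2.42 and 12.4 ± 2.90 (SD, n = 2 each). The groups overlapped. The samples with the higher medians were those with the higher top share, 25.2% in nicotine 1 and 2 and 18.7% in saccharin 3 and 4, against 10.04% and 8.47% in the samples with the lower medians. In the same samples, the median of wide regions with a gene ran the other way, at 57.6 and 61.6 with nicotine and 61.8 and 59.6 with saccharin. After pre- and postnatal exposure the medians were 8.62, 12.2 and 11.1 with nicotine and 16.1, 10.8 and 10.1 with saccharin, giving 10.6 ± 1.82 and 12.4 ± 3.23 (SD, n = 3 each). Nicotine 1 was lowest and saccharin 1 highest, and the other 4 lay between 10.1 and 12.2. As a share of the median of wide regions with a gene, nicotine 1 reached 22.8% and saccharin 1 reached 44.5%. The top share was 19.1%, 49.7% and 41.9% in nicotine 1, 3 and 4, and 39.9%, 28.8% and 33.1% in saccharin 1, 2 and 3, so the highest median was not in the library of highest top share. The part of the top share in these levels was not tested.

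Most of the regions were weak. The mean signal over libraries had a median of 10.6 in the postnatal table and 9.87 in the pre- and postnatal table. It was under 10 in 346 regions (46.5%) and 384 regions (51.6%). It reached 50 in 25 regions and 21 regions, a share of 3.36% and 2.82%, against 74.8% and 61.3% of wide regions with a gene. The order of levels was kept between tables less closely than in wide regions: Spearman's rho across regions was 0.616 (n = 744), against 0.656 for narrow regions with a gene (n = 715), 0.924 for wide regions without a gene (n = 2704) and 0.957 for wide regions with a gene (n = 10673). These are descriptions across regions of the same libraries, and regions are not independent replicates. Regions further than 1 Mb from a named region had a median of 5.33 per kb in the postnatal table and 10.5 in the pre- and postnatal table, against 13.6 and 11.7 for those at 5 to 50 kb.

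A few regions held much of the signal, and the level of several of them was higher in samples of higher top share. The strongest 5 held 23.7% to 41.7% of the signal of all 744 per postnatal library and 45.7% to 63.9% per library of the other table. The strongest lay on chromosome X, 139917244 to 139918023, 89.1 kb from the region of Chrdl1, which encodes a BMP antagonist. Its signal was 4077, 3918, 1407 and 1513 in postnatal nicotine libraries 1 to 4 and 1963, 1680, 2730 and 2824 in saccharin libraries 1 to 4. After pre- and postnatal exposure it was 4388, 12060 and 9059 with nicotine and 10249, 5482 and 5422 with saccharin. Nicotine and saccharin overlapped in both tables, and libraries of 1 nicotine group differed by more than 2-fold.

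The next was on chromosome 4, 64158500 to 64159396, 627 kb from Pappa, a metalloprotease that cleaves IGF-binding proteins. It had 2046 and 817 in postnatal nicotine samples against 806 and 1333 in saccharin samples, and 1326, 5305 and 3449 with pre- and postnatal nicotine against 4425, 2049 and 2413 with saccharin. The region on chromosome 9, 24346114 to 24346904, 39.1 kb from Dpy19l1, had 1102 and 288 in postnatal nicotine samples against 337 and 673 in saccharin samples. In the other table it had 394, 1879 and 1452 with nicotine against 1306, 782 and 919 with saccharin. These regions were high and low in the same samples as the strongest. Another on chromosome 17, 13745518 to 13746347, near Mllt4, was likewise high and low in the same postnatal samples, at 251 and 67.5 with nicotine and 90.6 and 178 with saccharin. In the pre- and postnatal table it was lowest in nicotine 4, at 81.4, where the strongest region was not low.

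The order of the top share held exactly in both tables for 0.155% of all regions. It did so for 0.444% of wide regions without a gene and 0.0281% of those with one. Among narrow regions with a gene it was 0.140%. Of the 744, 2 regions (0.269%) had this order in all 4 postnatal samples and all 6 pre- and postnatal samples. One lay on chromosome 18, 56098825 to 56099778, 493 kb from Gramd3, with 483 and 160 in postnatal nicotine samples against 111 and 286 in saccharin samples, and 262, 765 and 727 with pre- and postnatal nicotine against 572, 395 and 396 with saccharin. The other lay on chromosome 5, 115372013 to 115372901, 20.0 kb from 2210016L21Rik, with 189 and 51.9 against 39.8 and 134, and with 84.9, 340 and 303 against 252, 160 and 183, nicotine before saccharin. In the postnatal table, 83 of the 744 regions (11.2%) had their 4 samples in the order of the top share and 13 (1.75%) in the reverse order, against 9.09% and 1.54% of narrow regions with a gene and 4.55% and 5.36% of all regions. Of wide regions without a gene, 5.18% had the order of the top share and 4.51% the reverse order. Over the 6 pre- and postnatal samples, 7 of the 744 regions (0.941%) had the order of the top share. So had 0.280% of narrow regions with a gene, 0.666% of wide regions without a gene and 0.390% of all regions. The top share is made of other regions of the same libraries, so these orders are descriptions. The log2 difference, nicotine minus saccharin, of the chromosome 18 region was 0.64 ± 0.37 (SE) after postnatal exposure and 0.24 ± 0.27 after pre- and postnatal exposure, and limma's adjusted p was 1.00 and 0.987.

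**Figure D3:**
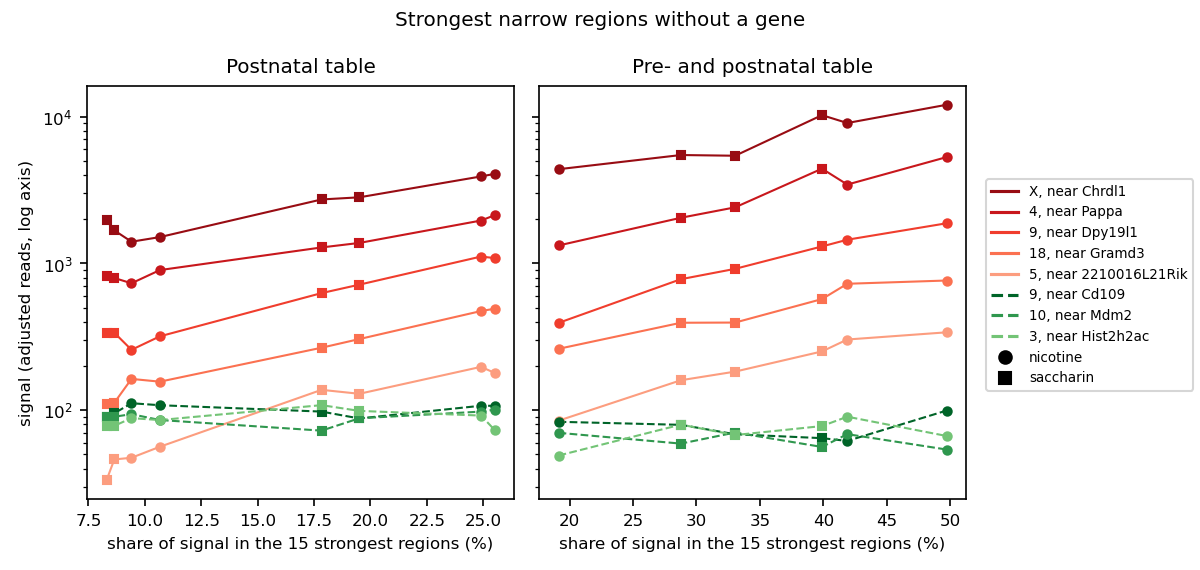
Signal (vertical axis, adjusted reads, log scale) of 8 narrow regions without a gene in each library, against the top share of the library (horizontal axis, %). Solid lines are regions mostly higher in libraries of higher share, though not all in strict order. The one near Gramd3 departs from that order only between postnatal nicotine 3 and 4, at 163 and 157. Dashed lines are regions that stay between 49.1 and 112 in the libraries shown.

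Other strong regions were steady between postnatal samples. Of the 25 regions with a mean of 50 or more in the postnatal table, 18 had an SD of log2 signal under 0.3 between the 4 samples and 7 had an SD of 0.5 or more. Some of the 18 were less steady in the pre- and postnatal table. The SD there was 0.665 on chromosome 4, 145722310 to 145723112, and 0.571 on chromosome 14, 20403937 to 20404923. On chromosome 10, 128026928 to 128027899, it was 0.538. Others stayed under 0.3 there, such as the region near Mdm2, at 0.171. The region on chromosome 9, 78669204 to 78670110, 206 kb from Cd109, which encodes a surface protein that binds TGF-beta, had 107 and 110 in postnatal nicotine samples against 93.0 and 92.9 in saccharin samples. It had 83.4, 99.5 and 61.8 with pre- and postnatal nicotine against 64.5, 79.5 and 68.6 with saccharin. The postnatal groups did not overlap, and those of the other exposure did. Its log2 difference was 0.22 ± 0.15 and 0.18 ± 0.21 (SE), with adjusted p of 1.00 and 0.987 in limma.

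The region between Mdm2, the ubiquitin ligase of p53, and Nup107, a nuclear pore protein, lay on chromosome 10, 117183054 to 117183980. It had 99.4 and 89.9 in postnatal nicotine samples against 89.9 and 80.4 in saccharin samples, and 70.2, 54.0 and 68.7 with pre- and postnatal nicotine against 56.2, 59.2 and 70.5 with saccharin. It was among the steadiest, and the log2 differences were 0.15 ± 0.17 and 0.05 ± 0.22 (SE). The region on chromosome 3, 96043243 to 96043900, between Hist2h2ac and Hist2h4 had 82.7 and 87.0 in postnatal nicotine samples against 78.2 and 104 in saccharin samples, and 49.1, 66.8 and 90.4 with pre- and postnatal nicotine against 78.0, 79.8 and 67.8 with saccharin. The groups overlapped in both tables. 5 protein-coding histone genes lie between these neighbours, so its reads may be shared with near-identical copies. The region on chromosome 13, 23837659 to 23838617, in the interval of H3c3 and H2bc3, had 37.0 and 43.9 in postnatal nicotine samples against 38.6 and 38.0 in saccharin samples. With pre- and postnatal exposure it had 23.8, 15.0 and 15.7 with nicotine against 25.01, 28.2 and 33.7 with saccharin, which did not overlap, with a log2 difference of -0.66 ± 0.37 (SE) and an adjusted p of 0.987 in limma. In the interval of Mfsd8, chromosome 3, 40650757 to 40651591, the region had a mean of 45.8 over the postnatal libraries and 31.7 over the others.

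After postnatal-only exposure, no region passed the test that asked whether nicotine altered the mark. Of the 744 regions, 738 passed the filter on low values, and 0 of them had an adjusted p under 0.05 in limma, as had 0 of all 14873 regions tested (0%). The smallest adjusted p among them was 1.00. At an unadjusted p under 0.05 stood 7 regions (0.949%), 2 higher and 5 lower with nicotine, against 1.89% of all regions tested (0.961% higher and 0.928% lower). The nicotine and saccharin samples did not overlap in 199 regions (27.0%), 85 higher and 114 lower, against 29.1% of all regions (15% higher and 14% lower). The median log2 difference was -0.02, against -0.0036 over all regions, and 47.6% of differences were above 0, against 49.1%. The share of regions with a log2 difference of 1 or more in either direction was 3.93%, against 0.343% of all regions and 1.96% of narrow regions with a gene. The SE had a median of 0.53, against 0.18 over all regions, and a 95% interval reached 1.11 to either side (2.16-fold) for the median region. Steadier regions had narrower intervals.

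The regions with the lowest p in each direction are given as values. The clearest separation was on chromosome 9, 59539451 to 59540437, 35.2 kb from Pkm2, which encodes pyruvate kinase. It had 15.0, 10.5, 9.84 and 11.2 in nicotine libraries 1 to 4 and 29.5, 29.1, 34.3 and 28.4 in saccharin libraries. All nicotine libraries lay below all saccharin libraries. The log2 difference was -1.31 ± 0.39 (SE, n = 2 each), with an unadjusted p of 0.00361 and an adjusted p of 1.00 in limma. With the class of high or low top share as a term, limma's adjusted p was 0.0293 for this region and 3.02e-05 for the chromosome 18 region near Gramd3. The class was set from the top share of these same samples, and the chromosome 18 region has the order of that share. Neither value is therefore read as a call. Over 13 alternatives the adjusted p of the chromosome 9 region ran from 0.0293 to 1.00. After pre- and postnatal exposure the chromosome 9 region had 21.9, 12.2 and 17.7 with nicotine against 10.4, 18.1 and 10.3 with saccharin, a log2 difference of 0.40 ± 0.46.

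On chromosome 14, 76551756 to 76552700, near 1200011I18Rik, signal was 20.1 and 13.4 in nicotine samples against 30.4 and 33.0 in saccharin samples (log2 difference -0.91 ± 0.37). On chromosome 3, 108339220 to 108340191, 17.6 kb from Scarna2, a small Cajal body RNA, it was 21.7 and 10.2 with nicotine against 27.3 and 29.9 with saccharin (-0.89 ± 0.41). On chromosome 13, 21973879 to 21974661, near the zinc finger gene Zfp184, it was 4.02 and 2.24 with nicotine against 6.79 and 15.7 with saccharin (-1.50 ± 0.64). All had samples that did not overlap, and all had an adjusted p of 1.00 in limma. The region near Zfp184 met the required mean of 10 in a group through saccharin alone (11.2, against 3.13 with nicotine). Its direction was set by that choice, and it is given as values. The histone cluster region on chromosome 13, 21813324 to 21814134, near Hist1h2ak, had 44.0 and 54.0 with nicotine against 69.7 and 64.2 with saccharin, a log2 difference of -0.45 ± 0.22. In the other exposure it had 32.3, 36.6 and 21.6 with nicotine against 35.4, 41.7 and 45.8 with saccharin, which overlapped, and a log2 difference of -0.46 ± 0.30.

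On the higher side, the region on chromosome X, 98527772 to 98528702, 33.2 kb from Nlgn3, a synaptic adhesion protein, had 18.9 and 10.1 in nicotine samples against 3.61 and 6.39 in saccharin samples, a log2 difference of 1.35 ± 0.56. Another on chromosome 13, 58869332 to 58870141, 39.4 kb from Ntrk2, the receptor of the neurotrophin BDNF, had 10.5 and 12.1 against 1.59 and 7.85, nicotine before saccharin, a log2 difference of 1.36 ± 0.65. Both differences had an adjusted p of 1.00 in limma. Both regions, and the chromosome 8 region below, met the required mean of 10 in a group through nicotine alone. Their direction was set by that choice, and they are given as values. After pre- and postnatal exposure the log2 difference was -0.49 ± 0.61 near Nlgn3 and 0.75 ± 0.42 near Ntrk2. On chromosome 8, 19963729 to 19964387, inside the run of 7 regions, signal was 19.1 and 15.5 with postnatal nicotine against 6.67 and 10.5 with saccharin (0.96 ± 0.48). On chromosome 4, 145230509 to 145231360, near Gm13238, it was 34.8 and 28.3 with nicotine against 18.0 and 21.8 with saccharin (0.64 ± 0.35), while the other exposure had 9.44, 9.66 and 13.8 with nicotine against 23.9, 16.1 and 19.9 with saccharin (-0.81 ± 0.44). Neither table called this region, and a test of the difference between exposures called none of the 744.

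After pre- and postnatal exposure, again no region passed, while the 744 regions as a list leaned to lower values with nicotine under the submitters' scaling. Of the 744, 743 were tested, and 0 had an adjusted p under 0.05 in limma, as had 0 of 14879 regions tested (0%). The smallest adjusted p among them was 0.987. At an unadjusted p under 0.05 stood 48 regions (6.46%), 10 higher and 38 lower, against 3.59% of all regions tested (1.72% higher and 1.87% lower). Groups did not overlap in 79 regions (10.6%), 22 higher and 57 lower, against 8.95% of all regions (4.49% higher and 4.46% lower). The median log2 difference was -0.23, against 0.0027 over all regions and -0.23 for narrow regions with a gene. 37.3% of differences were above 0, against 50.5% of all regions tested, and 14.9% were 1 or more in either direction, against 2.24%. Narrow regions with a gene were close to the 744, with 36.4% above 0 and 15.1% at 1 or more. Of them, 5.74% had an unadjusted p under 0.05 in limma and 8.96% did not overlap (1.54% higher and 7.42% lower).

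The lean changed with 2 of the libraries and with some settings. The median was -0.05 without nicotine 1, -0.06 without saccharin 1 and 0.070 without both, and it was 0.085 after quantile normalization and 0.042 over regions with at least 10 in 3 samples. It was -0.27 with each library scaled to the same sum outside the strongest regions, -0.29 with the top share as a covariate and -0.30 with a replicate block. Of the 744 regions, 69, 39 and 68 were under a signal of 1 in nicotine 1, 3 and 4, against 0, 10 and 16 in saccharin 1, 2 and 3. The median SE was 0.60, against 0.26 over all regions, and the 95% interval of the median region reached 1.25 to either side (2.37-fold).

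**Figure D4:**
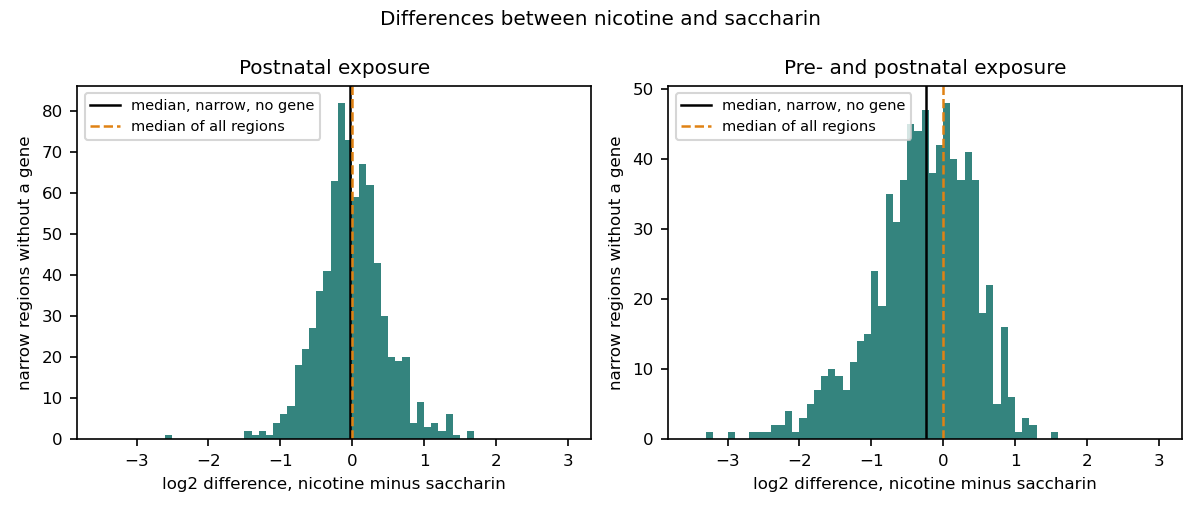
Number of narrow regions without a gene (vertical axis) by log2 difference, nicotine minus saccharin (horizontal axis), after postnatal exposure (left) and pre- and postnatal exposure (right). The solid line is the median of these regions, at -0.02 and -0.23, and the dashed line the median of all regions tested.

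The regions highest with nicotine included 3 that ordered the pre- and postnatal libraries alike but for nicotine 1 and saccharin 2. The first lay on chromosome 1, 12634386 to 12635243, 729 kb from Ncoa2, a coactivator of nuclear receptors. It had 156, 264 and 392 with nicotine against 81.3, 146 and 216 with saccharin, and 39.9 and 72.8 in postnatal nicotine samples against 26.1 and 50.2 in saccharin samples. The second lay on chromosome 11, 24999851 to 25000609, 1110 kb from 5730522E02Rik, with 137, 267 and 392 with nicotine against 68.9, 158 and 202 with saccharin. Its postnatal signal was 38.6 and 65.3 with nicotine against 25.2 and 40.7 with saccharin. The third lay on chromosome X, 119944539 to 119945358, 434 kb from Nap1l3, a nucleosome assembly protein family member, with 76.5, 99.8 and 177 with nicotine against 26.2, 77.7 and 86.8 with saccharin. All were highest in nicotine 4 and lowest in saccharin 1, and their groups overlapped. The signal of the second was 84.7% to 108% of the first in the 6 libraries and 60.5% to 141% in the postnatal libraries. The log2 differences were 0.88 ± 0.28, 0.89 ± 0.31 and 0.96 ± 0.34 (SE, n = 3 each) with an adjusted p of 0.987 each in limma, and 0.56 ± 0.33, 0.63 ± 0.31 and 0.38 ± 0.42 (n = 2 each) after postnatal exposure with an adjusted p of 1.00. Without nicotine 1, the first and second had an adjusted p of 0.0460 and 0.0499 in limma. Both were also called without nicotine 1 and saccharin 1, at 0.0390 and 0.0220, and over 15 alternatives their adjusted p ran from these values up to 1.00.

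**Figure D5:**
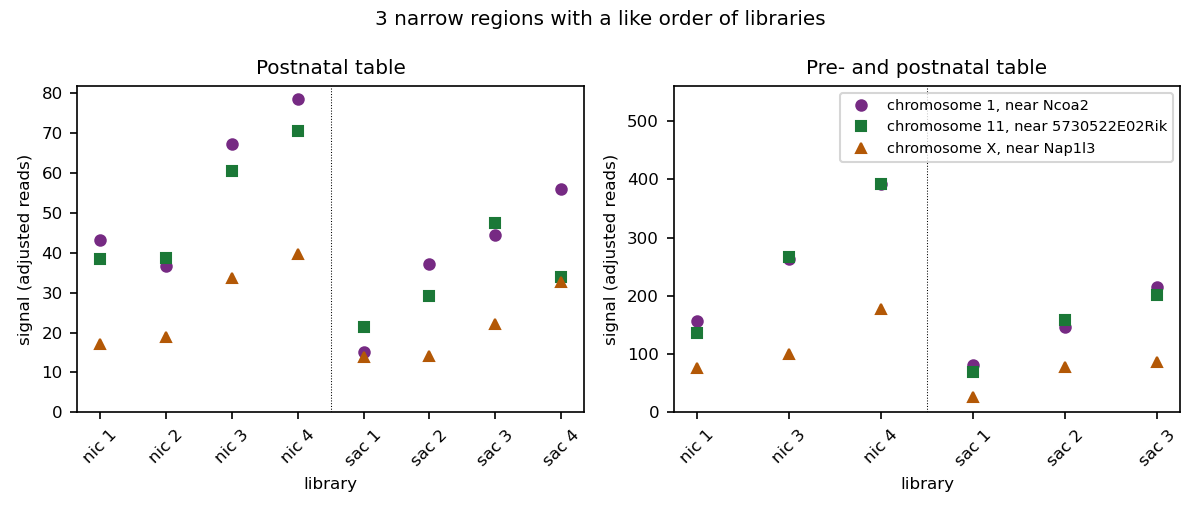
Signal (vertical axis, adjusted reads) of the regions near Ncoa2, 5730522E02Rik and Nap1l3 in each library, nicotine left of saccharin. In the pre- and postnatal table the 3 regions are highest in nicotine 4 and lowest in saccharin 1.

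Further regions higher with nicotine did not overlap between groups. On chromosome 3, 104231081 to 104231805, near Lrig2, signal was 29.2, 43.6 and 70.7 with nicotine against 17.7, 13.8 and 22.6 with saccharin, a log2 difference of 1.30 ± 0.36 (unadjusted p 0.00172, adjusted p 0.987 in limma). Its postnatal signal was 10.5 and 10.8 with nicotine against 3.64 and 9.16 with saccharin (0.76 ± 0.57), which also did not overlap. On chromosome 4, 40381178 to 40382074, near Tmem215, it was 16.9, 30.3 and 32.4 with nicotine against 16.6, 6.40 and 11.9 with saccharin (1.16 ± 0.45).

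The regions lowest with nicotine were weak ones near 0. They met the required mean of 10 in a group through saccharin alone, so their direction was set by that choice and they are given as values. On chromosome 16, 89452530 to 89453428, 691 kb from Gm10789, all 3 nicotine libraries were listed at 0 to within rounding, against 22.7, 4.63 and 5.84 with saccharin. In the postnatal table this region had 2.90 and 2.16 with nicotine against 1.57 and 4.60 with saccharin. On chromosome 19, 15188497 to 15189331, 517 kb from Tle4, a transcriptional corepressor, signal was 0, 4.28 and 0 with nicotine against 19.6, 9.21 and 4.66 with saccharin. Its postnatal samples had 0.556 and 0.000649 with nicotine against 4.13 and 9.15 with saccharin. The adjusted p was 1.00 after postnatal and 0.987 after pre- and postnatal exposure in limma. Signal was also lower on chromosome 5, 45669160 to 45670157, at 0.945, 2.57 and 0 with nicotine against 12.5, 14.6 and 5.71 with saccharin. On chromosome 16, 70955350 to 70956257, it was 0.926, 6.64 and 0 against 17.6, 12.2 and 7.66, and on chromosome 1, 109238624 to 109239491, it was 0.935, 2.83 and 0.977 against 14.5, 7.96 and 8.18, nicotine before saccharin. The last had the opposite order after postnatal exposure, at 2.90 and 2.26 with nicotine against 0.508 and 1.38 with saccharin. At such levels a few reads set the value, and saccharin 1 was highest of the 6 in each of these but the one on chromosome 5.

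The test of the difference between the exposures, a z test per region from both fits, called 0 of 737 of these regions and 0 of 14871 in all (0%). At an unadjusted p under 0.05 it had 29 of them (3.93%), against 3.65% of all regions tested. An interval that holds 0 does not show that the exposures act alike.

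Among regions with a mean of at least 10, those that differed most between postnatal samples were on chromosome X, 72900872 to 72901819, near Rab39b, and chromosome X, 32105940 to 32106783, beside the region on chromosome 5 given above. The first had 41.8 and 6.28 with nicotine against 8.26 and 16.5 with saccharin, and the second 25.3 and 3.41 against 5.69 and 10.5, nicotine before saccharin. Both were high in the samples of high top share. In the pre- and postnatal table the widest spread was on chromosome 8, 114896059 to 114896798, with 4.61, 10.2 and 21.7 with nicotine against 25.7, 0 and 7.75 with saccharin. On chromosome 14, 83897984 to 83898852, the most isolated region had 6.60, 24.0 and 0 with nicotine against 19.6, 7.91 and 5.26 with saccharin. On chromosome 5, 133234375 to 133235317, signal was 3.70, 8.59 and 13.8 with nicotine against 22.7, 20.1 and 0.218 with saccharin. In the pre- and postnatal table the groups overlapped in each of these. In the postnatal table the chromosome 14 region had 7.48 and 4.84 with nicotine against 1.52 and 3.68 with saccharin. The last chromosome 5 region had 5.13 and 2.17 against 5.18 and 8.68, nicotine before saccharin. Neither overlapped there, as was so for 29.1% of all regions tested.

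Values just inside and just outside the limits of the rule are given without a test. The widest regions inside, both 999 bp, lay on chromosome 11, 18777371 to 18778370, and on chromosome 15, 85464944 to 85465943, with a mean signal of 12.2 and 17.7 in the postnatal table, and the next, 998 bp, on chromosome 2, 161002769 to 161003767, had 12.6. The nearest outside, 1000 bp, lay on chromosome 16, 30236018 to 30237018, with 12.0. The next, both 1001 bp, lay on chromosome 11, 53672311 to 53673312, with 50.8, and on chromosome 4, 102431548 to 102432549, with 49.0. Just outside the width limit, 2 of these 3 regions were thus higher than all 3 inside. At the position limit, the regions just inside began at 7065742 on chromosome 17 and 7108899 on chromosome 10, with 7.41 and 8.83. Those just outside began at 6488904 on chromosome 17 and 6403508 on chromosome 13, with 56.2 and 13.3, both higher than those inside.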

How the data were processed

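The authors deposited 1 table per exposure (build mm9) whose values are a signal, namely adjusted read counts per region, not whole, each table adjusted separately. The submitters' processing notes name edgeR. The aligner, the peak caller and the counting of reads with several matches were not stated in what was used here. Of 19203 rows per table, 14881 had values. Replicates are not labelled as separate animals, so p-values measure the spread between samples.

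Each exposure was fitted separately over all regions with limma 3.58.1 (trend, two-sided, R 4.3.3) on log2 of the signal with a pseudocount of 1, so changes of weak regions are understated. Regions needed at least 1 in as many samples as the smaller group. Adjusted p is by Benjamini-Hochberg over all regions tested, with a threshold of 0.05. A z test compared the exposures. Python 3.11.15, pandas 2.3.3 and matplotlib 3.10.9 were used for the rest. The code of the fits was run on simulated data. The spread added there to counting noise was smaller than the residual spread of these data. No changes were placed in the weakest regions. That run therefore does not show how well changes in weak regions could be detected.

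The regions, lists and tests were chosen with earlier results of these data known. Named were, per exposure, the 6 regions highest in signal per kb, the 5 with the lowest p in each direction among those with a mean of at least 10 in a group, the 3 of largest spread, and those at the limits of the rule. Steady regions, runs, histone neighbours, promoters and the like order of 3 regions were picked after their values were seen. Of 11388 named regions, 11224 identifiers matched the gene table (GRCm38.p6).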

Additional observations from a re-analysis of the deposited data

How the results depend on the processing

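No region of the 744 was called in either exposure, and these calls changed under some settings. In the postnatal table, the replicate block (the library pair as a term) called 1 of all regions, the one near Gramd3 (adjusted p 0.0381), and the class of high or low top share as a term called 9, of which 2 were among the 744. Same-numbered postnatal pairs deviated with r = -0.484 across regions, and with 2 samples a group the crossed value is its mirror image. The crossed pairing, added after seeing the data, equals the class term, since nicotine 1 and 2 and saccharin 3 and 4 are the samples of high top share. The class was itself set from the values of these same libraries. In the pre- and postnatal table the shared numbers gave r of -0.087 and -0.085, and the replicate block called 0. Leaving out 1 postnatal pair gave 0 to 31 regions called, and leaving out 1 pre- and postnatal library gave 0 to 17. Without nicotine 1 and saccharin 1 together, a choice made after seeing the data, 58 regions were called, 8 of them among the 744. Arms left with 1 sample were assumed to vary like the other group. The calls without postnatal nicotine 3 and 4 (adjusted p 1.97e-05) and without nicotine 1 and 2 (0.0320) had opposite directions for the region near Mllt4, with log2 differences of 0.98 and -0.91. The cause was not tested.

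Of the 744, 7 regions had an unadjusted p under 0.05 after postnatal exposure. This count was 4 with at least 10 as the filter, 30 after quantile normalization, 4 with the replicate block, 64 with the class term and 59 with 8 libraries as 8 samples. Over all regions tested the share was 1.89% in the main fit. In the same order of settings it was 1.89%, 2.41%, 0.928%, 7.15% and 9.25%. The counts are out of 738 of the 744 regions, or 437 with at least 10 as the filter. After pre- and postnatal exposure the count was 48 regions, beside a share of 3.59% over all regions tested. It was 14 with at least 10 as the filter, 31 after quantile normalization (22 higher and 9 lower) and 26 with the replicate block (3 higher and 23 lower). It was 29 to 85 with 1 library left out and 98 without nicotine 1 and saccharin 1. The shares over all regions under these alternatives are not given here. These counts are therefore not read as a result about the 744. The median log2 difference was -0.22 to 0.19 with 1 postnatal pair left out and -0.31 to -0.05 with 1 pre- and postnatal library left out. It was 0.042 with at least 10 as the filter and 0.085 after quantile normalization, and 0.070 without nicotine 1 and saccharin 1. The cause was not tested.

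Median signal per kb in the postnatal table was 8.34 with the width limit at 800 bp and 16.4 with the wider of the alternative limits, and 11.6 to 12.4 with 1 library left out (10.6 to 11.8 in the other table). The share of far regions was 38.2% with the limit at 100 kb. The 2 tests by exposure named 20 differences, and of 274 values under alternatives 269 kept their direction and side of the threshold, 5 passed it and 0 turned. edgeR and DESeq2 were not run, since whole counts could not be had. Raw depth is unknown, and weak signal limits what could be detected.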
